A study of Danio rerio with 6 samples.

Results

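The genes described here encode the enzymes of glycolysis and the proteins of the hypoxia response. They were chosen by symbol, as a list of 44 glycolysis enzyme, glucose transport and hypoxia-inducible factor (HIF) response genes, and 33 of them had at least 1 probe set of that symbol among 8793 measured genes. Their 40 probe sets are part of 15502 tested. The other 11 listed genes (the glucose transporter genes slc2a1a and slc2a1b, the lactate exporter gene slc16a3, the pyruvate dehydrogenase kinase gene pdk1, pfkla, eno2, pkmb, vegfab, hif1aa, adma and ankrd37) were not analysed here. Glucose uptake by slc2a1, lactate export by slc16a3 and inhibition of pyruvate dehydrogenase by pdk1 were therefore without a measured member.

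Tumours of 6 zebrafish were compared, each on its own Affymetrix zebrafish array. The 3 SRBCT (small round blue cell tumours, described by the submitters as like Ewing's sarcoma) carry the genotype label Tg(HSP:EWS-FLI1); p53M214K/M214K. The 3 MPNST (malignant peripheral nerve sheath tumours) carry the label p53M214K/M214K, so all 6 fish were homozygous for the M214K allele of p53 and only the SRBCT fish had the transgene. In those fish a heat shock promoter, which is not specific to a cell type, drove the human EWS-FLI1 fusion from a transposon injected into the embryo, and insertions were somatic. Ages are not given in the sources used here, and the tissue was whole tumour. The values are log2 expression values, 1 per probe set and array, and all differences are SRBCT minus MPNST in log2 units, with SD over n = 3 arrays. The number of arrays limits the precision.

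Glycolysis splits glucose into pyruvate in the cytosol, and lactate dehydrogenase can turn pyruvate into lactate, which regenerates the NAD+ that the pathway uses. When oxygen falls, the HIF alpha subunits escape hydroxylation by the prolyl hydroxylases of the egln family, pair with ARNT and switch on genes of glycolysis, blood vessel growth and adaptation to low oxygen. Many tumours use glycolysis heavily, with or without low oxygen. Zebrafish have paralogs at many of these steps, so the same step can be read from more than 1 gene.

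The arrays were not equally alike. SRBCT 3 correlated at 0.892 and 0.864 with SRBCT 1 and SRBCT 2 over all probe sets, and at 0.875, 0.91 and 0.916 with the MPNST arrays. The Ewing sarcoma target ortholog nkx2.2a was at 10.76 and 9.58 on SRBCT 1 and SRBCT 2 but at 4.18 on SRBCT 3, near the 3.48 to 3.86 of MPNST, whereas the neural crest factor gene sox10 lay between 10.34 and 11.01 on all 6 arrays. Markers of intestine and pancreas stood highest on SRBCT 3 (median of 24 measured markers 2.16 above their 6-array means), and markers of liver on MPNST 1 (median of 34 markers 3.23 above). For a part of the results that rest on these arrays, the difference without them is given too. In bulk tumour, fewer cells of a type and less RNA per cell cannot be told apart.

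No member passed the test over the 6 arrays (limma, Benjamini-Hochberg adjusted p under 0.05 over all probe sets), where 0.876% of all genes did. Unadjusted p was under 0.05 for 7 of the 33 members (21.2%), beside 15.7% of all genes, with 4 higher (12.1%, beside 7.52%) and 3 lower (9.09%, beside 8.21%). The groups did not overlap for 8 members (24.2%), beside 22.3% of all genes, so the members were near the background in that count. Of the 8, pgk1, pkma, egln3, bnip3 and vegfaa were higher in SRBCT (15.2%, beside 12.3% of all genes) and gapdh, pfkfb3 and ca9 were lower (9.09%, beside 10.0%). For pfkfb3 this held only for the brighter of its probe sets. The median difference over the members was 0.13, against 0.07 over all genes.

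**Figure D1:**
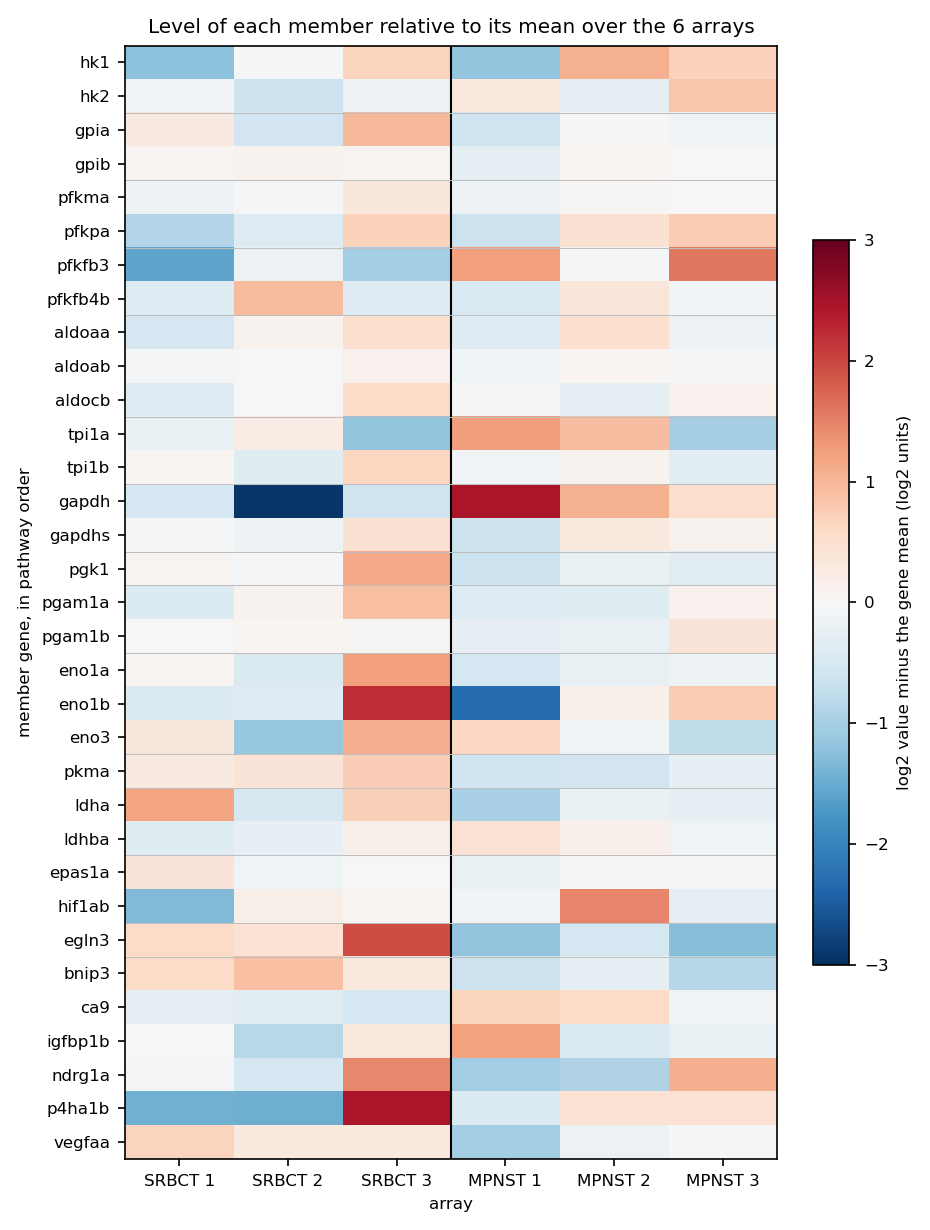
Heat map of the 33 members (rows, in pathway order) on the 6 arrays (columns); colour is the log2 value minus the gene's mean over the 6 arrays, and grey lines part the steps. The SRBCT 3 column is mostly above 0 among glycolysis enzymes and the MPNST 1 column mostly below, while gapdh, tpi1a and hk2 run the other way on both.

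The first steps of glycolysis showed no separation of the tumour types. hk1, which encodes a hexokinase that traps glucose in the cell as glucose-6-phosphate, was at 7.29, 8.49 and 9.21 on SRBCT 1 to 3 and at 7.38, 9.60 and 9.22 on MPNST 1 to 3. It was low on 1 array of each group and the groups overlapped (difference -0.40, SE 0.73, adjusted p 0.802). The probe set that stands for hk1 is of a kind shared between related sequences, and a second one, specific by name, differed by -0.40 as well. hk2, the more inducible hexokinase in mammals, differed by -0.59 (SE 0.33, adjusted p 0.44). The isomerase gene gpia was at 11.46, 10.62 and 12.17 in SRBCT and at 10.59, 11.22 and 11.06 in MPNST, with SRBCT 3 highest (difference 0.46, adjusted p 0.613). The gpia difference was 0.08 without SRBCT 3. Its paralog gpib, at 4.12 to 4.52, lay within the range of control probe sets that have no target, and differed by 0.16.

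Phosphofructokinase commits glucose to glycolysis, and the PFKFB enzymes make and degrade its activator fructose-2,6-bisphosphate. The platelet-type gene pfkpa was at 7.64, 8.14 and 9.22 in SRBCT and at 7.89, 8.99 and 9.28 in MPNST, with overlap (-0.39, adjusted p 0.738). The muscle-type gene pfkma was dim, at 3.73, 3.85 and 4.21 against 3.72, 3.92 and 3.86 (0.10, adjusted p 0.832). pfkfb3, whose mammalian product strongly favours synthesis of the activator, was at 6.0, 7.40 and 6.55 in SRBCT and at 8.81, 7.55 and 9.16 in MPNST. Every SRBCT array lay below every MPNST array, although SRBCT 2 and MPNST 2 were only a little apart. The difference was -1.86 (SE 0.54, 3.62-fold lower in SRBCT, adjusted p 0.222). The second pfkfb3 probe set gave a smaller difference, -0.25, with overlap, so both the separation and its size rest on the brighter probe set. pfkfb4b was at 7.53, 8.85 and 7.53 in SRBCT and at 7.44, 8.26 and 7.83 in MPNST (0.13, adjusted p 0.901).

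The aldolases and triosephosphate isomerases, which make the 3-carbon sugars, had small differences apart from tpi1a and the dimmer aldocb probe set. aldoaa was at 10.94, 11.56 and 11.94 in SRBCT and at 11.07, 11.93 and 11.27 in MPNST (0.06, SE 0.35), and its direction turned with cyclic loess (-0.02). Its paralog aldoab was dim, at 4.34, 4.42 and 4.54 against 4.28, 4.46 and 4.36 (0.07, adjusted p 0.864). aldocb, a gene of the brain-type aldolase C, differed by 0.12 by its brighter probe set and by 0.56 by the other, where the groups did not overlap. tpi1b was at 10.88, 10.46 and 11.47 in SRBCT and at 10.71, 10.94 and 10.49 in MPNST (0.22, adjusted p 0.735). tpi1a, in contrast, was at 6.67, 7.10 and 5.68 in SRBCT and at 8.14, 7.79 and 5.87 in MPNST, so that replicate 3 was lowest in both groups (-0.78, SE 0.68, adjusted p 0.592).

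gapdh had the largest difference among the members in size. It encodes glyceraldehyde-3-phosphate dehydrogenase, which couples oxidation of the sugar to reduction of NAD+, and was at 9.23, 6.84 and 9.16 in SRBCT and at 12.21, 10.82 and 10.28 in MPNST. All SRBCT arrays lay below all MPNST arrays (8.41 ± 1.36 against 11.10 ± 1.0, difference -2.69, SE 0.80, 6.47-fold lower, adjusted p 0.229). Without MPNST 1, the highest array, the difference was -2.14. The paralog gapdhs, whose human ortholog is the sperm form of the enzyme, was at 11.95, 11.84 and 12.46 in SRBCT and at 11.35, 12.30 and 12.10 in MPNST. It differed by 0.17 (adjusted p 0.815), and its 3 control probe sets on the array differed by -0.16, 0.26 and 0.11. These control probe sets are the GAPDH quality controls of the array, which the platform annotation assigns to gapdhs. Their 3' minus 5' signal, a sign of RNA integrity, was 0.64 ± 0.22 in SRBCT and 1.06 ± 0.03 in MPNST (p 0.1 by an exact permutation test, two-sided, its lowest possible value with these 6 arrays). It was 0.41 to 0.84 on the SRBCT arrays and 1.04 to 1.1 on the MPNST arrays. The same measure of the muscle actin control ran the other way, at 0.74 ± 0.82 in SRBCT and -0.85 ± 0.17 in MPNST (p 0.1, exact permutation test). That control was at 1.28, 1.14 and -0.21 on SRBCT 1 to 3. On a log2 scale the summed level of skeletal muscle markers was 11.19, 11.03 and 9.69 on these arrays and 9.30 to 9.48 in MPNST. The brightest markers weigh most in such a sum. The part of muscle in the actin control, and of RNA integrity in the gapdh difference, was not tested.

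The order of the arrays in gapdh, from SRBCT 2 through SRBCT 3, SRBCT 1, MPNST 3 and MPNST 2 to MPNST 1, was also the order of the summed level of gonad and egg markers. On a log2 scale that sum was 8.2 to 9.08 in SRBCT and 12.34 to 14.11 in MPNST, and 15 of its 17 measured markers had a difference below 0. Of the 17, 5 fell in SRBCT by limma over all probe sets, where 0.785% of all genes did. The part of ovary tissue in the gapdh difference was not tested.

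In the lower steps of glycolysis, from pgk1 to pkma, all 7 differences were above 0, as were those of 55.9% of all genes, and none passed the test. Without SRBCT 3, eno3 turned to -0.30, and pgam1a, eno1a and eno1b were at 0.05, 0.13 and 0.06. pgk1, for phosphoglycerate kinase, the first step that returns ATP, was at 10.69, 10.56 and 11.74 in SRBCT and at 9.95, 10.41 and 10.25 in MPNST. All SRBCT arrays were above all MPNST arrays, SRBCT 2 and MPNST 2 being close (0.79, SE 0.36, 1.73-fold, adjusted p 0.36). Without SRBCT 3 the difference was 0.42. The phosphoglycerate mutase genes pgam1a and pgam1b differed by 0.40 and 0.06, and the groups overlapped for both.

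Of the enolase genes, eno1a was at 10.99, 10.47 and 12.14 in SRBCT and at 10.37, 10.68 and 10.75 in MPNST (0.60, adjusted p 0.535). Its paralog eno1b varied more, at 8.0, 8.02 and 10.63 against 6.12, 8.57 and 9.17 (0.93, SE 1.04, adjusted p 0.677), so that 1 SRBCT array was high and 1 MPNST array low. eno3, the muscle-type enolase gene in mammals, was at 10.26, 8.80 and 11.02 against 10.54, 9.79 and 9.16 (0.20, adjusted p 0.897). The log2 of the summed level of 32 skeletal muscle markers was 11.19, 11.03 and 9.69 on SRBCT 1 to 3 and 9.30 to 9.48 in MPNST. The part of muscle in the eno3 values was not tested.

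pkma had the smallest p among the glycolysis enzymes. Its product, pyruvate kinase, makes pyruvate and ATP in the last step, and it was at 10.55, 10.66 and 11.02 in SRBCT and at 9.67, 9.71 and 10.03 in MPNST. The groups were well apart relative to their spread (10.74 ± 0.25 against 9.80 ± 0.20, difference 0.94, SE 0.22, 1.92-fold, adjusted p 0.154). The difference lay between 0.73 and 1.05 over all alternatives, none of which passed (smallest adjusted p 0.0861).

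Lactate dehydrogenase is made of A chains, which favour lactate formation, and B chains, which are typical of oxidative tissue. Their differences had opposite signs, and neither passed the test. ldha was at 9.83, 8.15 and 9.35 in SRBCT and at 7.67, 8.45 and 8.40 in MPNST, with SRBCT 2 inside the MPNST range (0.94, SE 0.48, adjusted p 0.409). Without MPNST 1, the lowest array, the difference was 0.68. ldhba was at 10.03, 10.16 and 10.54 in SRBCT and at 10.84, 10.55 and 10.27 in MPNST, again with overlap (-0.31, SE 0.24, adjusted p 0.556). The shift of ldha against ldhba was 1.25, with p 0.2 by the same exact permutation test. The arrays high in ldha, SRBCT 1 and SRBCT 3, also had the highest signal of the bioB spike-in that is added before hybridization, 8.69 and 7.98 against 6.33 to 6.85 on the other 4 arrays, and its part in the ldha values was not tested.

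**Figure D2:**
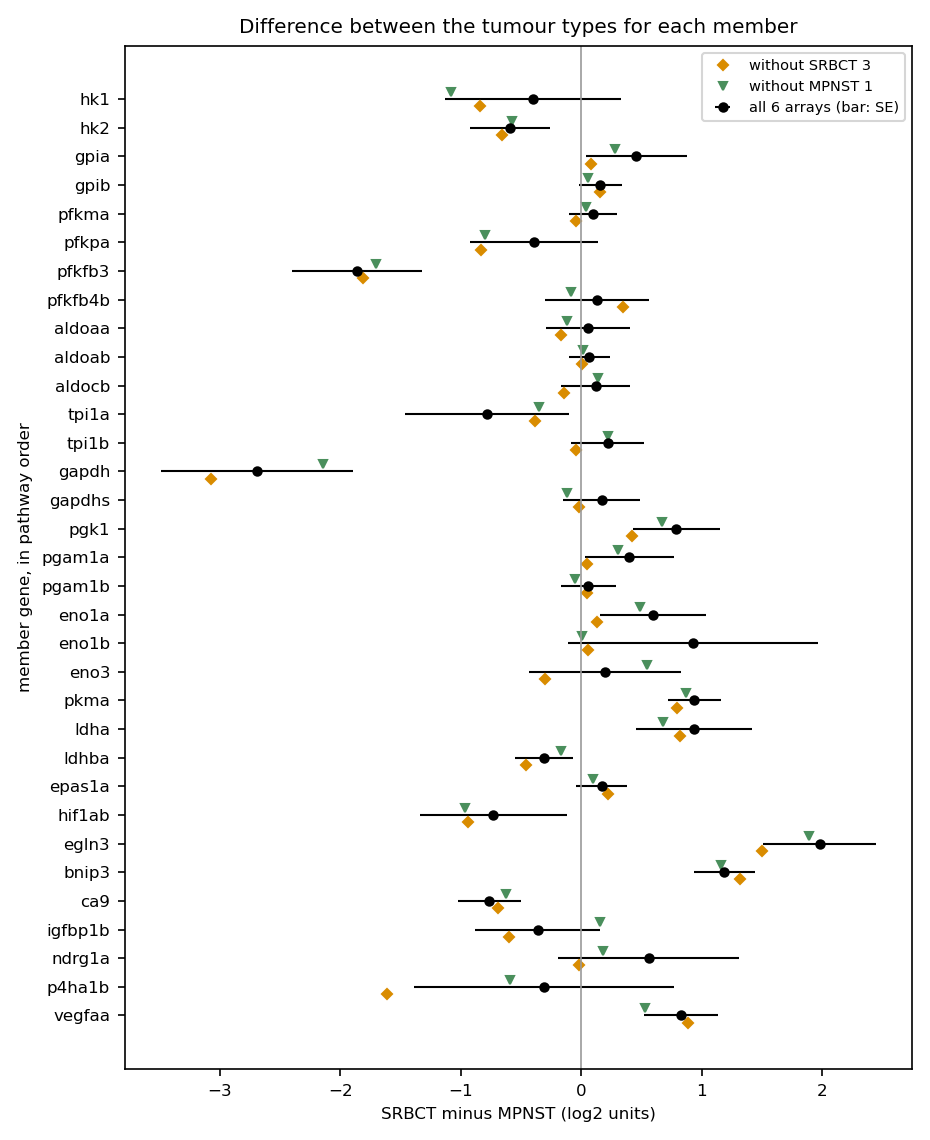
Difference of each member between the tumour types (log2 units, black points with SE over all 6 arrays), with the difference without SRBCT 3 (orange) and without MPNST 1 (green). Values range from -2.69 for gapdh to 1.98 for egln3, and p4ha1b moves most, from -0.31 to -1.61, when SRBCT 3 is left out.

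Among the HIF response genes, egln3 and bnip3 were the members with the clearest separation. egln3 encodes a HIF prolyl hydroxylase that is itself a HIF target and marks HIF for destruction when oxygen returns. It was at 8.01, 7.88 and 9.41 in SRBCT and at 6.26, 6.92 and 6.17 in MPNST. The lowest SRBCT array stood nearly 1 log2 unit above the highest MPNST array (8.43 ± 0.85 against 6.45 ± 0.41, difference 1.98, SE 0.47, 3.95-fold, adjusted p 0.155). bnip3, which encodes a mitochondrial protein that promotes removal of mitochondria, was at 6.27, 6.6 and 6.03 in SRBCT and at 5.06, 5.43 and 4.84 in MPNST. The groups again did not overlap (6.30 ± 0.29 against 5.11 ± 0.30, difference 1.19, SE 0.25, 2.28-fold, adjusted p 0.124).

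vegfaa, for the growth factor that drives blood vessel formation, was at 6.68, 6.29 and 6.30 in SRBCT and at 4.99, 5.83 and 5.95 in MPNST. The gap between the groups was small next to the spread within MPNST, where MPNST 1 was low (0.83, SE 0.31, 1.78-fold, adjusted p 0.298). Without MPNST 1 the difference was 0.53.

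Other HIF response genes did not follow egln3 and bnip3. p4ha1b, which encodes a collagen prolyl hydroxylase, was at 6.49 and 6.46 on SRBCT 1 and SRBCT 2, at 10.38 on SRBCT 3, and at 7.53, 8.37 and 8.36 in MPNST. SRBCT 1 and SRBCT 2 were thus below every MPNST array and SRBCT 3 above all of them (-0.31, SE 1.08, adjusted p 0.903). ndrg1a, a stress-induced gene of the NDRG family, was at 5.53, 5.07 and 7.04 in SRBCT and at 4.56, 4.70 and 6.70 in MPNST, with replicate 3 high in both groups (0.56, adjusted p 0.732).

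ca9, whose human ortholog is a surface carbonic anhydrase used as a hypoxia marker, was at 3.71, 3.65 and 3.45 in SRBCT and at 4.65, 4.58 and 3.87 in MPNST. It was lower on all SRBCT arrays (-0.76, SE 0.26, adjusted p 0.282), but at levels within the range of the control probe sets without a target, whose mean levels ran from 3.0 to 4.95. The insulin-like growth factor binding protein gene igfbp1b was at 5.05, 4.25 and 5.38 against 6.29, 4.63 and 4.84 (-0.36, adjusted p 0.752), its highest value being on MPNST 1, the array with the high liver markers. Together with gpib, pfkma, aldoab and epas1a, ca9 was 1 of 5 members whose mean level did not exceed the highest of 20 such control probe sets, and differences of these 5 can be understated at this signal.

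Of the HIF alpha subunit genes among the members, hif1ab overlapped between the tumours and epas1a was dim by every probe set. hif1ab was at 7.51, 9.0 and 8.90 in SRBCT and at 8.75, 10.30 and 8.55 in MPNST, with the highest value on MPNST 2 (-0.73, SE 0.61, adjusted p 0.581). epas1a, for HIF-2 alpha, was between 4.27 and 4.89 by its brightest probe set (0.17). Its 2 other probe sets, with mean levels of 4.45 and 2.47, differed by 0.47 and 0.21 without overlap. No epas1a probe set exceeded the highest mean level of the control probe sets without a target, 4.95. The median of those controls was itself 0.31 higher in SRBCT. HIF alpha is controlled mostly at the level of protein, which the arrays do not measure.

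**Figure D3:**
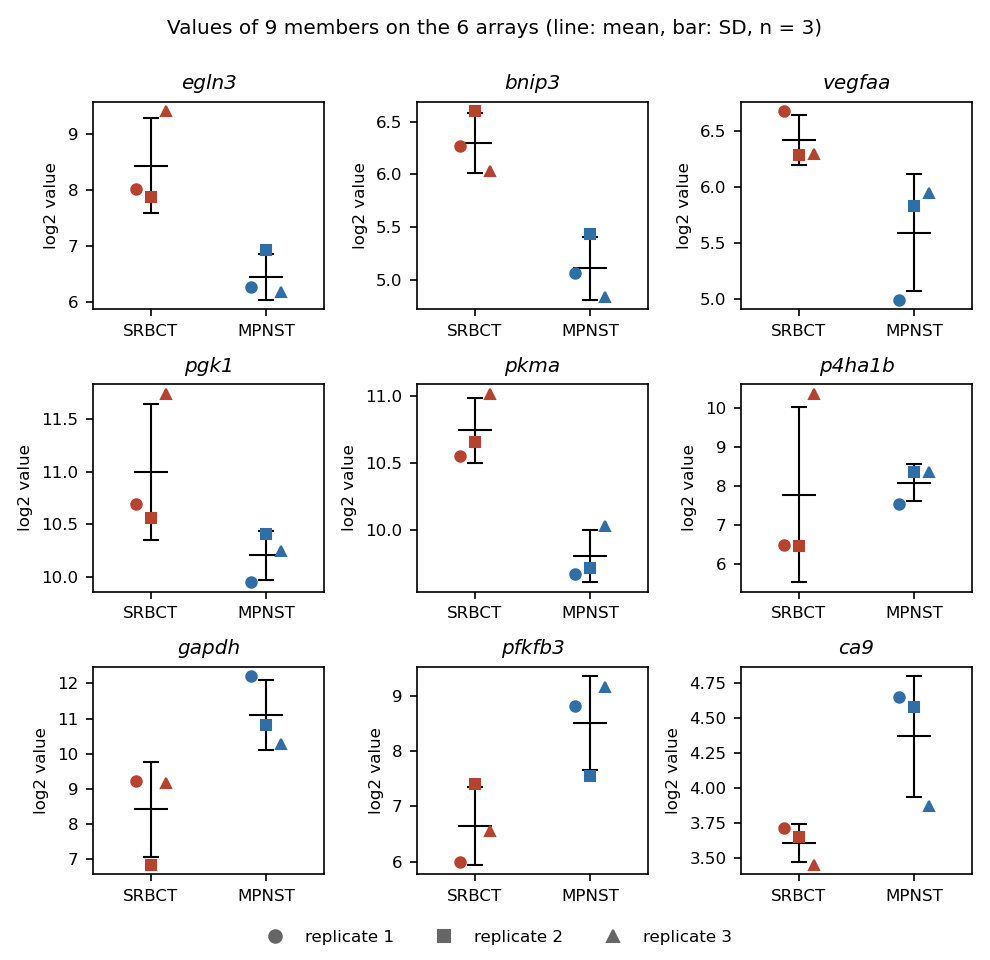
Log2 values of 9 members on the 6 arrays; symbols mark the replicate, horizontal lines the mean and bars the SD over n = 3. egln3, bnip3, vegfaa, pgk1 and pkma are higher on all SRBCT arrays, gapdh, pfkfb3 and ca9 lower, and p4ha1b splits SRBCT 3 from the other SRBCT arrays. The pfkfb3 values are those of its brighter probe set, and by its other one the tumour types overlap.

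Leaving out SRBCT 3 changed which members passed. In that fit 3 of 33 members did (9.09%), beside 7.16% of all genes. egln3 (1.5, adjusted p 0.0435) and bnip3 (1.32, adjusted p 0.0449) were higher in SRBCT 1 and SRBCT 2 (6.06% of members, beside 3.22% of all genes), and p4ha1b was lower (-1.61, adjusted p 0.046; 3.03% beside 3.95%). p4ha1b also passed when SRBCT 3 and MPNST 1 were both left out (-1.89, adjusted p 0.0222), a setting chosen after seeing the data, where 5.14% of all genes passed and egln3 and bnip3 did not. In the other 5 fits that left out 1 array limma called 0 members, beside 0.136% to 0.728% of all genes. Over these 6 fits the difference of p4ha1b ranged from -1.61 to 0.35 and turned its sign, and that of eno1b ranged from 0.01 to 1.54.

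Single arrays rather than tumour types held the common pattern of the glycolysis enzymes. SRBCT 3 had the highest value of the 6 arrays for 16 of 33 members (48.5%), beside 21.0% of all genes, and for 13 of the 22 glycolysis enzymes. MPNST 1 had the lowest value for 15 members (45.5%), beside 24.3% of all genes. Both held for 9 members (27.3%), namely gpia, pfkma, aldoab, gapdhs, pgk1, eno1a, eno1b, pkma and ndrg1a, beside 6.30% of all genes. The median of the control probe sets without a target had the same extremes. It was 4.14 on SRBCT 3, 3.3 on MPNST 1 and 3.46 to 3.74 on the remaining arrays. Of the members counted here, pfkma, aldoab, gpib and epas1a lay within the level range of these controls. The part of array background in the pattern was not tested. Relative to the 6-array mean of each gene, the median of the glycolysis enzymes was 0.61 on SRBCT 3 and -0.34 on MPNST 1, while the 4 remaining arrays lay from -0.10 to 0.05.

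The log2 of the summed level of the 22 enzymes, in which the brightest genes weigh most, was 15.25 on SRBCT 3. It was 14.29 to 14.65 on the other 5 arrays. The same arrays stood apart in the intestine and pancreas markers, whose summed level on that scale was 14.50 on SRBCT 3 and 9.42 to 12.02 on the others. So they did in the liver markers, at 15.16 on MPNST 1 and 10.53 to 11.62 on the others. The part of these tissues in the glycolysis values was not tested. Without SRBCT 3 the median difference over the 22 enzymes was -0.03, and 0.14 with it.

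**Figure D4:**
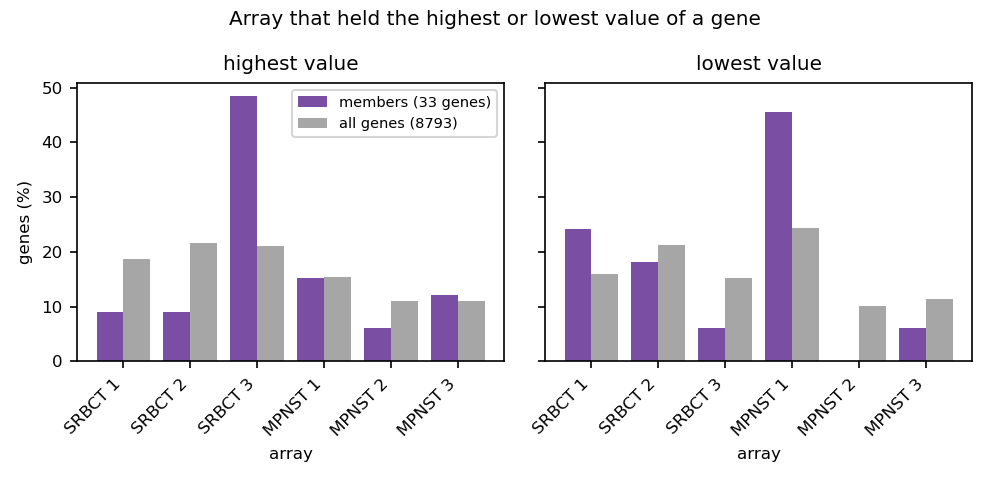
Percent of genes whose highest (left) or lowest (right) value of the 6 arrays fell on each array, for the 33 members (purple) and all 8793 genes (grey), genes with tied values being counted on no array. SRBCT 3 held 48.5% of the members' highest values and MPNST 1 held 45.5% of their lowest.

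Members of 1 step were then set against each other through the log2 ratio of their probe sets within each array, which shows unequal change but not which gene is more abundant. In 15 pairs the tumour types did not overlap in 2. No such share was computed for ratios of other genes, and among single genes the groups did not overlap for 22.3%. The ratio of gapdh to gapdhs was -2.72, -5.0 and -3.30 in SRBCT and 0.86, -1.48 and -1.82 in MPNST. gapdh was thus lower relative to gapdhs on all SRBCT arrays, by a shift of -2.86. The ratio of pfkfb3 to pfkfb4b was -1.53, -1.45 and -0.98 in SRBCT and 1.37, -0.71 and 1.33 in MPNST, a shift of -1.98. That separation rests on 1 of 2 pfkfb3 probe sets: with the other the ratios overlapped (shift -0.38), and with the mean of both the shift was -1.18. By the exact permutation test p was 0.1 for both, the lowest possible, and 0.75 after Benjamini-Hochberg adjustment over the 15 pairs, so neither passed and the design could not let one pass. The ratio of tpi1a to tpi1b (-1.01, p 0.4 by the exact permutation test) was lowest on SRBCT 3 (-5.79) and MPNST 3 (-4.62), the remaining arrays lying from -4.21 to -2.57. For the 3 aldolase pairs the shifts were at most 0.07 in size by the brighter aldocb probe set. By the other one they were -0.51 for aldoaa and -0.50 for aldoab against aldocb, without overlap of the tumour types for aldoab. However, aldoab, gpib, pfkma and epas1a lay within the level range of control probe sets without a target. Ratios with them therefore mostly show the change of the other partner.

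**Figure D5:**
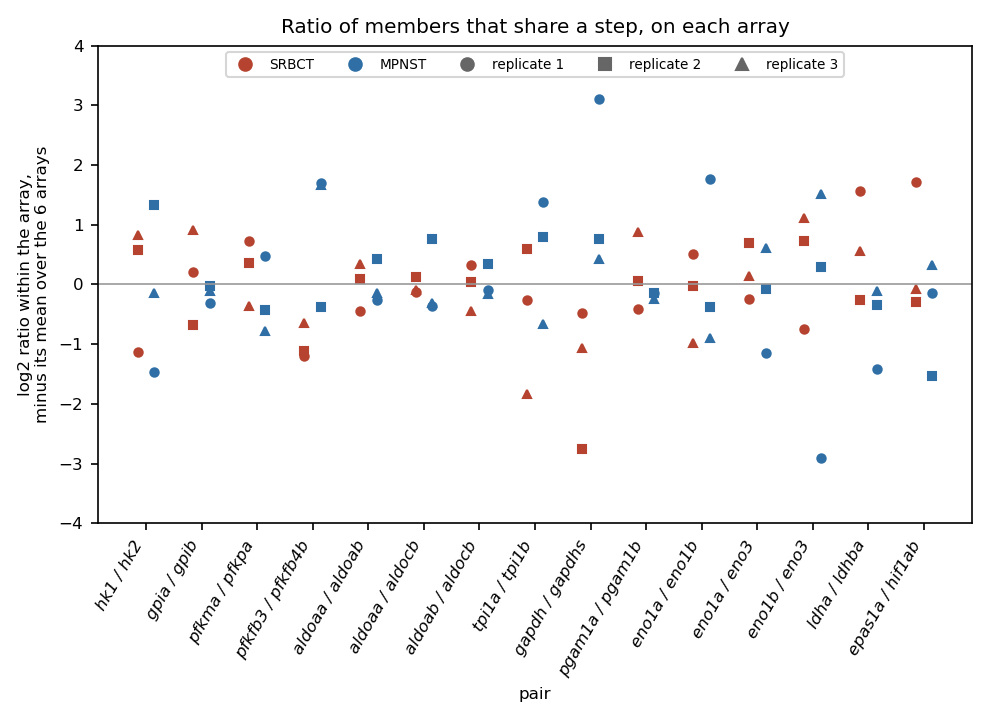
Log2 ratio of 2 members of a step within an array, minus its mean over the 6 arrays, for the 15 pairs; red is SRBCT, blue MPNST, and symbols mark the replicate. The tumour types do not overlap for gapdh with gapdhs and pfkfb3 with pfkfb4b, the latter by the brighter pfkfb3 probe set, which is the one plotted.

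The rest of the pathway was read from lists of other genes, with 128 measured genes in all. Over the 6 arrays limma called 0 of them, and at an unadjusted p under 0.05 there were 10 higher and 7 lower in SRBCT (13.3%, beside 15.7% of all genes). Among 12 other glycolysis enzymes the median difference was 0.17, and pgam2, the muscle-type mutase gene, was at 4.93, 4.64 and 5.76 in SRBCT and at 3.92, 4.45 and 4.29 in MPNST (0.89, adjusted p 0.304). Without SRBCT 3 the pgam2 difference was 0.56. The mean level of pgam2, 4.66, lay within the range of the control probe sets without a target. eno4 had the next smallest p (1.29, adjusted p 0.423). Of 10 other transport genes, slc2a3a, for a glucose transporter of the GLUT3 type found in neurons, was at 5.51, 7.0 and 4.23 in SRBCT and at 3.75, 3.98 and 4.2 in MPNST (1.60, adjusted p 0.333). Its mean level, 4.78, also lay within that control range. slc2a10 was at 4.45, 4.53 and 7.10 in SRBCT and at 7.46, 7.61 and 6.6 in MPNST (-1.86, adjusted p 0.327). Both had SRBCT 3 near the MPNST arrays, and both passed without it (adjusted p 0.0486 and 0.013), where 7.16% of all genes did.

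Genes that lead pyruvate into mitochondria and through the citric acid cycle showed small differences as lists. Among 11 genes of pyruvate entry the median was 0.14. The list holds the symbols dldh and dld. RefSeq gives dld as an older name of dldh, and dld has also been the name of the zebrafish Notch ligand gene deltaD, so dldh is not read here as the dehydrogenase of the pyruvate complex. dldh was at 7.85, 7.90 and 3.75 in SRBCT and at 3.28, 3.88 and 3.90 in MPNST (2.81, adjusted p 0.32, and 0.00226 without SRBCT 3), whereas dld differed by 0.06 with overlap. Without dldh the median was 0.10. Over all the pathway lists without dldh, 9 of 127 genes were higher and 7 lower at an unadjusted p under 0.05 by limma (12.6%). pdha1a differed by 0.71 (adjusted p 0.475). In the citric acid cycle, 24 genes had a median of 0.06, and the isocitrate dehydrogenase subunit genes idh3g (-0.69, adjusted p 0.225) and idh3a (-0.58, adjusted p 0.289) were lower on all SRBCT arrays, idh3g at the dim levels of the no-target controls. In the same list idh2, picked after its values were seen, was higher on all SRBCT arrays (0.61, adjusted p 0.289). The groups did not overlap for 4 of the 24 genes upward and 3 downward, beside 12.3% and 10.0% of all genes. Medians were -0.14 over 7 genes of the pentose phosphate pathway, led by pgls (0.58, adjusted p 0.497) and prps1a (0.30, adjusted p 0.539), and -0.17 over 7 genes of gluconeogenesis, led by gpd1b (2.21, adjusted p 0.383) and pck2 (-0.66, adjusted p 0.506). In glycogen metabolism, 8 genes had a median of -0.12, and the glycogenin gene gyg1a was lower on all SRBCT arrays (-1.48, adjusted p 0.271), while pgm1 differed by 1.17 (adjusted p 0.435). Without MPNST 1 the difference was 3.33 for gpd1b and -0.93 for gyg1a, and without SRBCT 3 it was 0.69 for pgm1.

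Among 15 regulators of HIF the median difference was 0.14. hif1al, of the HIF alpha family, was at 7.98, 8.41 and 8.14 in SRBCT and at 7.61, 6.93 and 7.08 in MPNST (0.97, SE 0.25, adjusted p 0.186), and arnt2, a partner of HIF alpha prominent in neurons, was at 5.94, 5.19 and 5.90 against 4.77, 4.85 and 4.83 (0.86, SE 0.25, adjusted p 0.227). Both were higher on all SRBCT arrays. However, the MPNST values of arnt2 lay below 4.95, the highest mean level of the control probe sets without a target. The median of those controls was 0.31 higher in SRBCT. epas1b, the paralog of epas1a, and siah2l passed without SRBCT 3, where 7.16% of all genes did, and were picked after their values were seen. epas1b was at 8.11 and 8.75 on SRBCT 1 and SRBCT 2, at 3.99 on SRBCT 3 and at 4.48, 4.06 and 3.89 in MPNST, which was also the split of nkx2.2a.

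The 34 measured genes listed as other HIF response genes had a median of 0.24. Among them, ndrg3a was at 9.14, 9.15 and 7.87 in SRBCT and at 6.95, 6.35 and 6.21 in MPNST (2.22, SE 0.42, adjusted p 0.1). It passed without SRBCT 3 (adjusted p 0.00791), where 7.16% of all genes did. ndrg4 was at 5.03, 4.61 and 4.44 in SRBCT and at 3.75, 3.75 and 3.90 in MPNST (0.89, adjusted p 0.163). Its mean level, 4.25, lay within the range of the control probe sets without a target, whose median was 0.31 higher in SRBCT. ndrg3a and ndrg4 are family members of ndrg1a, and whether HIF controls their RNA was not tested. Both were higher on all SRBCT arrays. ndrg3a, ndrg4 and slc2a3a are also expressed in neurons, and the log2 of the summed level of 24 neuron markers was 12.68, 13.19 and 11.33 on SRBCT 1 to 3 and 11.13 to 11.36 in MPNST. The neuron list includes the member aldocb, at 9.24, 9.6 and 10.2 on SRBCT 1 to 3 and 9.34 to 9.74 in MPNST. The sum is thus in part a member's own level. The part of neuron-like expression in the differences of ndrg3a, ndrg4 and slc2a3a was not tested. bhlhe41, a repressor gene induced by hypoxia and by the circadian clock, also passed without SRBCT 3 and was picked after its values were seen: it was at 7.33, 6.32 and 8.86 in SRBCT and at 9.75, 9.85 and 9.91 in MPNST (-2.33, adjusted p 0.191, and 0.00874 without SRBCT 3).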

How the data were processed

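Total RNA of each tumour (2.5 micrograms) was reverse-transcribed with oligo(dT) priming, and biotinylated cRNA was prepared from it, per the labels' protocols. The deposited values are log2 expression values per probe set; RMA in affy under R 2.2.0 is listed in the submitters' processing notes. Base 2 is assumed, as RMA gives it, and the values span 1.86 to 13.88. RMA draws dim values together. Of 15617 probe sets 115 AFFX controls were left out. Names came from the platform annotation of 2016, updated through Entrez identifiers (1 symbol changed): 10795 probe sets have 1 symbol, 135 several and 4572 none. The probe set with the highest mean stood for a gene. No sequences or positions were used.

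A model with tumour type alone was fitted to all 15502 probe sets (limma 3.58.1, R 4.3.3, lmFit and eBayes, Benjamini-Hochberg), and pairs of members were compared by exact permutation tests over 20 splits. The method was tested on simulated data. All members are described, and from each pathway list up to 4 called genes or otherwise the 2 with the smallest p, plus genes named as picked later. Marker lists were skeletal muscle, liver, intestine and pancreas, erythroid, neuron, leukocyte, endothelial, and gonad and egg markers. The members and lists were chosen with earlier results of these data known. Same-numbered replicates correlated at 0.0627, 0.0703 and -0.0461 in their deviations from the group means, and differently numbered ones at -0.121 to 0.0842. With 3 arrays a group this check cannot exclude that the numbers pair the tumours, and the main model used no pairing. That replicates are separate fish rests on the word biological in the titles. Alternatives were other scalings, no dim probe sets, other variance models, array weights, the replicate block, a minimum difference, each array left out and averaging the probe sets that share a gene.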

Additional observations from a re-analysis of the deposited data

How the results depend on the processing

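Over all probe sets limma called 140, and 26 to 1140 when 1 array was left out, most of them without SRBCT 3. Array weights gave 278 calls, the replicate block 88, no moderation of the variance 0 (1864 at an unadjusted p under 0.05), and leaving out SRBCT 3 and MPNST 1 together, chosen after seeing the data, 786. Among the members 0 were called, 0 to 3 when 1 array was left out and 1 without both arrays. The members' median of 0.13 ranged from -0.02 to 0.23 when 1 array was left out.

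Differences below the threshold turned sign for 17 of 33 members in 43 of 522 alternative values. The 522 include settings that could not turn a sign, because they leave the difference as it is. These are the trended variance, no moderation, no dim probe sets and the replicate block. With a second quantile normalization pfkma was at -0.01 and aldoab at -0.02. With cyclic loess pfkma was at -0.03, aldoaa at -0.02 and aldoab at -0.06. With array weights pfkma was at -0.02, pfkfb4b at -0.17, aldoaa at -0.30, aldoab at -0.00094, aldocb at -0.03 and gapdhs at -0.04. Without SRBCT 3 and MPNST 1, gpia was at -0.10, pfkma at -0.10, aldoaa at -0.35, aldoab at -0.03, aldocb at -0.12, tpi1a at 0.05, tpi1b at -0.04, gapdhs at -0.31, pgam1a at -0.04, pgam1b at -0.06, eno1b at -0.86 and ndrg1a at -0.40. With 1 array left out, the ranges were -1.08 to 0.12 for hk1, -0.04 to 0.20 for pfkma, -0.31 to 0.35 for pfkfb4b, -0.17 to 0.33 for aldoaa, -0.14 to 0.34 for aldocb, -0.04 to 0.46 for tpi1b, -0.12 to 0.36 for gapdhs, -0.05 to 0.26 for pgam1b, -0.30 to 0.81 for eno3, -0.67 to 0.16 for igfbp1b, -0.02 to 1.25 for ndrg1a and -1.61 to 0.35 for p4ha1b. The cause was not tested. With 3 arrays a group, differences the size of most members' cannot be told from the spread between tumours, and 5 members lay in the range of control probe sets without a target.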

Other observations

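Of the marker lists not used beside a result above, 14 erythroid markers had a median difference of -0.39, 15 leukocyte markers one of -1.01 and 11 endothelial markers one of -0.07, and over the 6 arrays limma called 0 of them, with 13 of 40 at an unadjusted p under 0.05 (32.5%, beside 15.7% of all genes), all lower in SRBCT. The log2 of the summed level of the endothelial markers was 9.12 and 9.50 on SRBCT 1 and SRBCT 2, 12.03 on SRBCT 3 and 11.01 to 12.21 in MPNST. The brightest markers weigh most in that sum, and the median marker did not share the split. Relative to the 6-array mean of each gene, that median was 0.15, -0.13 and 0.16 on SRBCT 1 to 3 and -0.07 to 0.03 in MPNST.

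The monocarboxylate transporter gene slc16a3b, which the symbol rule did not take in and which was picked after its values were seen, was at 6.16, 7.39 and 5.73 in SRBCT and at 8.76, 7.11 and 6.98 in MPNST (difference -1.19, SE 0.63, limma adjusted p 0.42). The groups overlapped. The lactate dehydrogenase gene ldhbb, picked in the same way, had a value of 7.48 on MPNST 1 and lay from 3.41 to 3.62 on the remaining 5 arrays, MPNST 1 being the array with the high liver markers.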
